A study of Homo sapiens with 8 samples.

Results

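The 37 genes described here encode soluble hydrolases and membrane proteins of the lysosome, without the cathepsins, together with the MiT/TFE transcription factors TFEB, TFE3 and MITF. Members were found by gene symbol in the 8 FPKM tables of the study, and rows of the same symbol were summed. Of the 37 genes, 29 have a row of their own among the 27204 genes and loci of the series. The other 8 have no row of a single symbol. HEXA, GLB1, NAGLU, MAN2B1, TPP1, MCOLN1 and CLN3 are listed inside loci that merge several genes, and their values cannot be split out. IDS stands in a locus that repeats its own symbol, and it was tested as a locus and is not counted among the members below. NEU1, a sialidase, has a row but stayed near 0 and was not tested, which left 28 tested genes. The NEU1 row sums 5 loci, some of which lie on alternative haplotype sequences of the same chromosome. How reads shared by these loci were counted was not tested, so its value near 0 is not read as a lack of NEU1 transcript.

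RNA was sequenced from H1703, an established human cell line from a squamous carcinoma of the lung. There were 4 groups with 2 libraries each: detached cells with a SPIB knockdown, detached control cells, attached cells with a SPIB knockdown, and attached control cells. The control cells are labelled iluc, read here as a knockdown reagent against luciferase, so every group had received a knockdown reagent. Detached means floating in the labels. All groups come from 1 cell line, and the labels number the libraries of a group 1 and 2 without saying that they came from separate cultures, so the p-values measure only the spread between these samples, which may be technical. A note of 12 hours afloat is attached to every sample, including the attached ones. The sources used here do not give the sequence or type of the knockdown reagent. By the series title, the study asked about SPIB, an ETS family transcription factor best known from B lymphocytes, in relation to anoikis, the death of cells that lose their attachment, and to the autolysosome.

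Lysosomes are acidic organelles that break down material delivered by endocytosis and autophagy. Their soluble enzymes are marked with mannose 6-phosphate in the Golgi and sorted to the lysosome, where each removes 1 type of chemical group, and loss of any of many of these enzymes causes a storage disease. The membrane proteins protect the limiting membrane and export the products. TFEB, TFE3 and MITF bind E-boxes, above all CACGTG and its longer form TCACGTGA, in the promoters of many lysosomal genes, and are held in the cytoplasm by mTORC1 when nutrients are plentiful.

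Promoter windows from RefSeq (GRCh38.p14, 250 bases before to 50 bases after an annotated start) were found for 28 of the 37 genes, 42 windows in all. ARSA, ASAH1, HEXA, LAMP2, LGMN, MANBA, NAGLU, PSAP and SGSH have none in the table used. The 4 windows below belong to LIPA, GALC and SLC17A5, which had the lowest values in SPIB-knockdown cells relative to control cells among genes with a window that passed a test, and to LAMP1, which did not pass one. Capitals mark each match to CACGTG or TCANGTGA, on either strand. The GALC window lies at chr14:87993133-87993432 on the minus strand, and is 1 of 4 windows of that gene. LIPA has 3 windows, of which the most downstream, chr10:89251726-89252025 on the minus strand, is shown. The SLC17A5 window lies at chr6:73653943-73654242 on the minus strand, and the LAMP1 window at chr13:113296989-113297288 on the plus strand.
LIPA: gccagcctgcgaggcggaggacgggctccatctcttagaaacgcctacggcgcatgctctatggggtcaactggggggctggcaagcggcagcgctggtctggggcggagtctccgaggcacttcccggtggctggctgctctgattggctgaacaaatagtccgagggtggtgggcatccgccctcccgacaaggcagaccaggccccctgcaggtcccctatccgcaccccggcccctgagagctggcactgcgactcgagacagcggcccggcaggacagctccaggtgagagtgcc
GALC: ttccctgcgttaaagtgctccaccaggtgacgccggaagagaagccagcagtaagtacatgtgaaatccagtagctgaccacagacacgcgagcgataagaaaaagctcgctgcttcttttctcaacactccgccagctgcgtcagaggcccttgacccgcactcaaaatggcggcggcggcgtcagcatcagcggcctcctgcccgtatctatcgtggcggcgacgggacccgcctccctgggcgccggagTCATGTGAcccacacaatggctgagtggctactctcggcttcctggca
SLC17A5: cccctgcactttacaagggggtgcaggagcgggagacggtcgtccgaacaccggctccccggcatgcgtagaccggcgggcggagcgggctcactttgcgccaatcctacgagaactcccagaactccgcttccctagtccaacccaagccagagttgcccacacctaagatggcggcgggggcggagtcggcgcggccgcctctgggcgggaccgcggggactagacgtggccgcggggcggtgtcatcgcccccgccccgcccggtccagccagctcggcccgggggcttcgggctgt
LAMP1: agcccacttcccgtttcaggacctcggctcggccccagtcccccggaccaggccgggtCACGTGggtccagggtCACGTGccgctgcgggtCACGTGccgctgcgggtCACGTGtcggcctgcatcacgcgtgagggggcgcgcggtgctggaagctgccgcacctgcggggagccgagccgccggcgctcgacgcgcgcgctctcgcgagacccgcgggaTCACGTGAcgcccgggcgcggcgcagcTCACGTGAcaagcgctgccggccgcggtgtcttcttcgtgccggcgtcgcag

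The LAMP1 window holds 6 copies of CACGTG, and those starting at positions 223 and 250, counted from 1 at the 5′ end, lie within TCACGTGA. The GALC window holds TCATGTGA at position 253, and no window of LIPA or SLC17A5 holds either motif. Among the 28 member genes with a window, 6 (21.4%) hold CACGTG, against 8.77% of 27305 genes, and 9 (32.1%) hold TCANGTGA, against 4.65%. A word of the ETS family type, GAGGAAGT, is in the windows of none of the 28 member genes and of 3.15% of all genes. A second ETS word, CCGGAAGT, is in the windows of CLN3 alone (3.57%), against 4.95% of all genes. CACGTG and TCANGTGA overlap wherever TCACGTGA occurs. A match is a string of letters in this window and not a measured binding site.

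Levels are given as FPKM, fragments scaled by transcript length and by mapped fragments of the library, and can be set side by side between genes. The sum of FPKM over all loci lay between 707883 and 786285 per library. Relative depth was estimated from the most frequent ratio of low values to those of attached control replicate 1. By this estimate the deepest library stood at 1.26 times and the shallowest at 0.79 times that library. The ratio rested on 136 genes and loci in the deepest and 265 in the shallowest, and was not checked against read counts. The total number of reads is unknown. In 1 library of each group the top mitochondrial locus is listed at 0 (detached SPIB-knockdown replicate 1, detached control replicate 1, attached SPIB-knockdown replicate 2 and attached control replicate 1), against about 47540 to 47980 FPKM in the others. SPIB is listed only in a locus merged with POLD1, so the knockdown itself could not be checked. Of the 7 squamous markers looked for, 4 have a row: TP63, DSG3 and PKP1 stayed at or under 0.318 FPKM and SOX2 between 0.734 and 2.68 FPKM. TP63, DSG3 and PKP1 were thus near 0, while KRT5, KRT6A and KRT14 have no row of their own and were not analysed here. Of the general epithelial markers, KRT8 stood at 11.5 to 20.01 FPKM, KRT18 at 46.2 to 90.00, EPCAM at 0 to 0.170 and CDH1 at 0.0358 to 0.292. Of the mesenchymal ones, VIM stood at 2056 to 2550 FPKM, ZEB1 at 21.5 to 27.7, CDH2 at 6.58 to 9.94 and FN1 at 2.05 to 4.42. All 5 B lymphocyte markers stayed at or under 0.152 FPKM.

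The 28 tested genes were present at 1 FPKM or more in every library, the lowest value being 1.09 FPKM for MITF in detached control replicate 2. Their levels spanned several orders of magnitude. PSAP, the precursor of the saposins that help hydrolases act on sphingolipids, was the most abundant, with 768 and 784 FPKM in detached SPIB-knockdown cells, 843 and 848 in detached control cells, 675 and 669.5 in attached SPIB-knockdown cells and 763 and 733 in attached control cells. GRN, which encodes progranulin, followed with 329 and 337 FPKM in detached SPIB-knockdown cells, 371 and 377 in detached control cells, 308 and 317 in attached SPIB-knockdown cells and 339 and 341 in attached control cells. LAMP1, a heavily glycosylated protein of the limiting membrane, came next. By their mean over all libraries, 3 genes stood above 100 FPKM, 14 between 10 and 100, 11 between 1 and 10, and NEU1 below 1. The least abundant tested genes were SMPD1, acid sphingomyelinase, at 1.49 to 2.78 FPKM, and FUCA1, a fucosidase, at 1.93 to 3.22 FPKM.

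Summed over the 29 genes and rounded, the libraries held 1801 and 1851 FPKM in detached SPIB-knockdown cells, 1997 and 2022 in detached control cells, 1670 and 1670 in attached SPIB-knockdown cells and 1851 and 1826 in attached control cells. The sum was lower with the knockdown than in control cells in both states, and higher in detached than in attached cells of both genotypes, without overlap. PSAP alone made up 40.1% to 42.6% of it, and PSAP, GRN and LAMP1 together 67.2% to 68.8%, so the sum mainly follows these 3 genes. Without PSAP the sums were 1033 and 1067 FPKM in detached SPIB-knockdown cells, 1153 and 1174 in detached control cells, 995 and 1001 in attached SPIB-knockdown cells and 1088 and 1093 in attached control cells. They were again lower with the knockdown and higher in detached cells, without overlap. These are bulk libraries, in which fewer cells with a transcript and less of it per cell cannot be told apart.

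**Figure D1:**
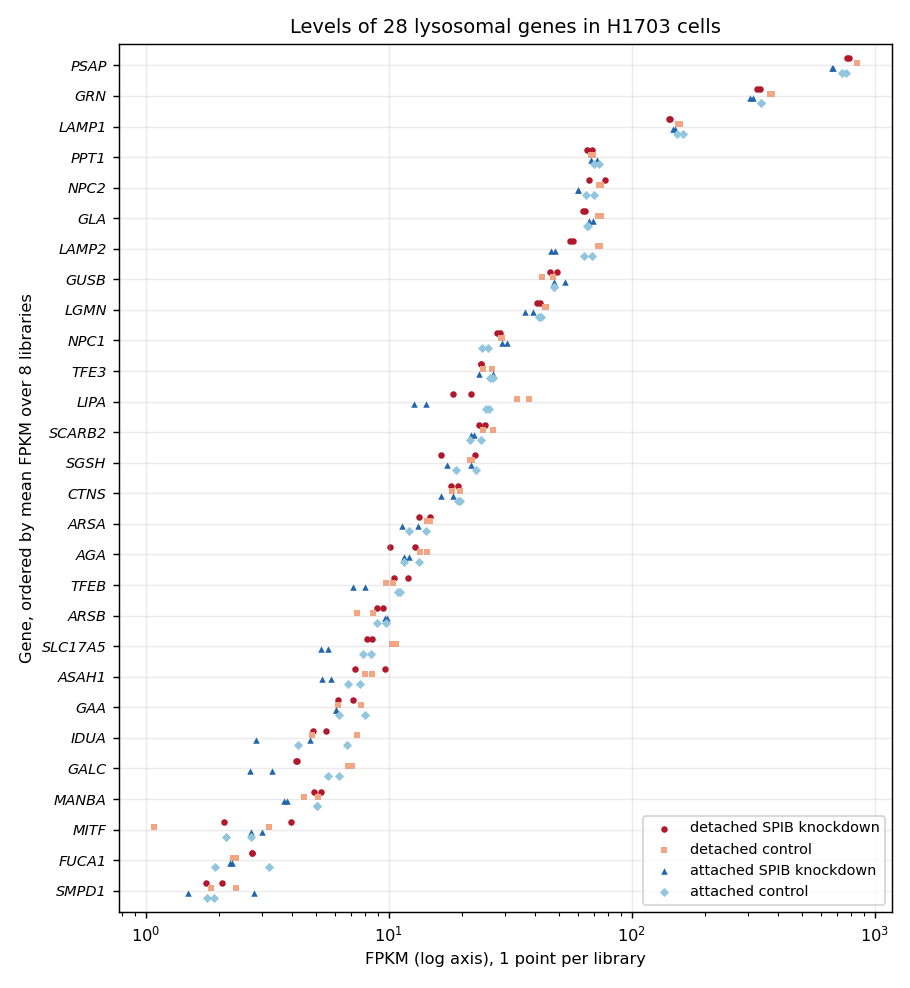
FPKM of the 28 tested lysosomal genes on a log axis, with 1 point for each of the 8 libraries, coloured by group, and genes ordered by their mean. PSAP, GRN and LAMP1 lie above 100 FPKM, and for LIPA, GALC, LAMP2 and SLC17A5 the attached SPIB-knockdown libraries lie to the left of the other groups.

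In attached cells, 4 lysosomal genes fell with the SPIB knockdown and none rose: LIPA, GALC, LAMP2 and SLC17A5. The test was limma on log2(FPKM + 1) of all 13438 tested genes and loci, and a gene is called where its p, adjusted by Benjamini-Hochberg, is under 0.05. The 4 genes are 14.3% of the 28, against 1.21% of all tested genes and loci that passed in the lower direction (1.85% in either direction). The members were chosen with earlier results of these data known. This and the later shares of members are therefore no test of lysosomal genes as a class. The median log2 fold change of the 28 genes was −0.12, against 0.0066 over all tested, with 6 positive and 22 negative values. Of all 13438 tested, 6928 were positive. Both knockdown libraries lay below both control libraries for 14 of the 28 (50%), against 22.4% of all tested, and above both for 2 (7.14%), against 24.4%. With only the 4 libraries of a comparison in the fit, none of the 28 passed in this or any other comparison. Over all 13438 tested, that fit called 11 higher and 17 lower in this comparison. With so few calls, the absence of members among them is not read as a result about the members.

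In detached cells, 2 of these genes fell with the knockdown, LIPA and LAMP2, and none of the 28 rose. That is 7.14% of the 28, against 0.662% of all tested that passed in the lower direction (0.737% in either). The median was −0.081, against 0 over all tested, with 7 positive and 21 negative values. Of all 13438 tested, 6706 were positive. Both knockdown libraries lay below both control libraries for 12 of the 28 (42.9%), against 22.6% of all tested, and above both for 3 (10.7%), against 21.3%. The attached and detached knockdown comparisons share no library. Set side by side, 8 genes were lower without overlap in both (LIPA, GALC, PSAP, LGMN, GRN, LAMP1, LAMP2 and SLC17A5), which is 28.6% of the members, against 9.6% of all tested. The log2 fold change was negative in both states for 18 genes (64.3% of 28, against 30.2% of all tested), positive in both for 3 and opposite for 7.

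Among the enzymes of neutral lipid and sphingolipid breakdown, LIPA and GALC had the lowest values of the whole group in both states. LIPA, lysosomal acid lipase, frees cholesterol and fatty acids from esters and triglycerides. It stood at 18.5 and 21.8 FPKM in detached SPIB-knockdown cells and at 33.7 and 37.9 FPKM in detached control cells. Attached SPIB-knockdown cells had 14.2 and 12.7 FPKM, against 25.9 and 25.03 FPKM in attached control cells. The groups did not overlap in either state: the detached SPIB-knockdown libraries lay below both groups of control libraries, and the attached SPIB-knockdown libraries were the lowest of all. LIPA fell by 0.87 ± 0.10 (SE) on the log2 scale in attached cells (adjusted p = 0.00907, limma) and by 0.80 ± 0.10 in detached cells (adjusted p = 0.0187). In plain FPKM the group mean with the knockdown was 0.529 of the control mean in attached cells and 0.563 of it in detached cells. Within the libraries with the mitochondrial locus at 0 and within the others, the values were −0.97 and −0.77 in attached cells and −0.83 and −0.77 in detached cells. The attached call was lost without attached SPIB-knockdown replicate 2 (adjusted p = 0.0628), attached control replicate 1 (adjusted p = 0.0826) or attached control replicate 2 (adjusted p = 0.0744). The detached call was lost without detached SPIB-knockdown replicate 1 (adjusted p = 0.102), detached control replicate 1 (adjusted p = 0.0767) or 2 (adjusted p = 0.155), or attached control replicate 1 (adjusted p = 0.0523) or 2 (adjusted p = 0.0519).

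The LIPA row covers a wide locus, chr10:90973326-91174314 in hg19, that overlaps the loci of the interferon-induced genes IFIT2, IFIT3, IFIT1B, IFIT1 and IFIT5 and of RP11-149I23.3. The sources used here do not say whether the libraries keep strand, so reads of overlapping genes cannot be told apart. Each of these 6 loci stood at 7.35 FPKM or less in every library. The highest of them, IFIT5, had 7.35 and 7.13 FPKM in detached SPIB-knockdown cells, 5.52 and 6.02 FPKM in detached control cells, 7.05 and 6.58 FPKM in attached SPIB-knockdown cells, and 5.68 and 6.85 FPKM in attached control cells. In detached cells it was thus higher with the knockdown, opposite to LIPA. IFIT1 was lower with the knockdown, like LIPA, without overlap in both states, and IFIT2 in detached cells. In detached cells IFIT1 had 2.52 and 3.69 FPKM with the knockdown and 4.39 and 4.64 FPKM in control cells, and IFIT2 had 1.35 and 1.46 FPKM with the knockdown and 2.15 and 2.83 FPKM in control cells. In attached cells IFIT1 had 1.93 and 2.07 FPKM with the knockdown, against 2.55 and 4.23 FPKM in control cells, and IFIT2 had 1.06 and 1.60 FPKM, against 1.54 and 2.57 FPKM, which overlap. Their part in the LIPA value was not tested.

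GALC, galactosylceramidase, the enzyme missing in Krabbe disease, was less abundant, with 4.19 and 4.14 FPKM in detached SPIB-knockdown cells and 6.81 and 7.08 FPKM in detached control cells. Attached SPIB-knockdown cells had 3.31 and 2.70 FPKM, against 5.63 and 6.25 FPKM in attached control cells. All 4 knockdown libraries lay below all 4 control libraries. GALC fell by 0.80 ± 0.12 on the log2 scale in attached cells (adjusted p = 0.0253, limma). The value in detached cells, −0.62 ± 0.12, did not pass (adjusted p = 0.0773), and the 2 values were not shown to differ (0.18 ± 0.17 for detached minus attached, adjusted p = 0.897). The attached values were −0.84 and −0.75 within the libraries with the mitochondrial locus at 0 and within the others, and the call was lost without any 1 of the 8 libraries (adjusted p between 0.0527 and 0.143).

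The other 5 tested genes of lipid breakdown did not pass in a knockdown comparison. PSAP, with the per-library levels given above, was lower with the knockdown without overlap in both states, by small amounts: −0.12 ± 0.031 in detached cells (adjusted p = 0.162) and −0.15 ± 0.031 in attached cells (adjusted p = 0.0610). GLA, alpha-galactosidase A, had 63.97 and 62.9 FPKM in detached SPIB-knockdown cells and 72.8 and 74.5 FPKM in detached control cells, without overlap. Attached SPIB-knockdown cells had 66.6 and 69.03 FPKM, against 66.03 and 65.5 FPKM in attached control cells, the opposite order. On the log2 scale GLA had −0.21 ± 0.045 in detached cells (adjusted p = 0.107) and 0.043 ± 0.045 in attached cells (adjusted p = 0.685). The GLA locus overlaps that of HNRNPH2 and RPL36A, a merged locus at 1404 to 1698 FPKM, and reads of the overlap cannot be told apart without strand. ASAH1 (acid ceramidase), ARSA (arylsulfatase A) and SMPD1 had log2 fold changes between −0.086 and 0.022 in detached cells and between −0.32 and 0.11 in attached cells.

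No tested enzyme of glycosaminoglycan breakdown passed with the knockdown (GUSB, SGSH, IDUA and ARSB, median −0.046 in detached and −0.016 in attached cells). IDUA, the iduronidase, had the lowest value of these, −0.44 ± 0.27 in attached cells, with libraries at 2.84 and 4.75 FPKM with the knockdown and 4.23 and 6.76 FPKM in control cells, which overlap. Of the enzymes of glycoprotein and glycogen breakdown (MANBA, FUCA1, AGA and GAA), none passed either, and all 4 values were negative in attached cells, from −0.35 for the mannosidase MANBA to −0.069 for the aspartylglucosaminidase AGA. PPT1, a thioesterase that removes palmitate from proteins, LGMN, the asparaginyl endopeptidase legumain, and GRN had negative values in both states. GRN was lower in both without overlap, with −0.17 ± 0.033 in detached cells (adjusted p = 0.0887) and −0.12 ± 0.033 in attached cells (adjusted p = 0.124).

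Among the membrane proteins, LAMP2 fell in both states and SLC17A5 in attached cells. LAMP2, a protein of the limiting membrane that takes part in autophagy, had 57.3 and 55.5 FPKM in detached SPIB-knockdown cells and 74.2 and 72.7 FPKM in detached control cells. In attached SPIB-knockdown cells it had 48.5 and 46.5 FPKM, against 63.7 and 68.5 FPKM in attached control cells. All 4 knockdown libraries lay below all 4 control libraries. On the log2 scale it fell by 0.47 ± 0.055 in attached cells (adjusted p = 0.00907, limma), while in detached cells it fell by 0.37 ± 0.055 (adjusted p = 0.0341). Within the libraries with the mitochondrial locus at 0 and within the others it was −0.45 and −0.49 in attached cells and −0.37 and −0.38 in detached cells. Leaving out attached SPIB-knockdown replicate 2 (adjusted p = 0.0653) or attached control replicate 2 (adjusted p = 0.0744) ended the attached call, and leaving out any 1 of the 8 libraries ended the detached call (adjusted p between 0.0536 and 0.213). The detached call was also lost with a block for the replicate number (adjusted p = 0.0635) or for the mitochondrial locus (adjusted p = 0.0667).

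LAMP1, the close relative of LAMP2, did not pass in either state. It had 142 and 143 FPKM in detached SPIB-knockdown cells and 156 and 158 FPKM in detached control cells. Attached SPIB-knockdown cells had 147 and 150.1 FPKM, against 162 and 153 FPKM in attached control cells. The knockdown libraries were lower without overlap, with log2 fold changes of −0.13 ± 0.041 in detached cells (adjusted p = 0.253) and −0.084 ± 0.041 in attached cells (adjusted p = 0.355). The FPKM ratio of LAMP2 to LAMP1 was 0.403 and 0.387 in detached SPIB-knockdown cells and 0.477 and 0.460 in detached control cells. It was 0.329 and 0.310 in attached SPIB-knockdown cells, against 0.393 and 0.447 in attached control cells. In both states the ratio was thus lower with the knockdown, without overlap. The difference between the 2 genes was not tested.

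SLC17A5, sialin, carries free sialic acid out of the lysosome. It had 8.10 and 8.49 FPKM in detached SPIB-knockdown cells and 10.3 and 10.7 FPKM in detached control cells. Attached SPIB-knockdown cells had 5.61 and 5.27 FPKM, against 8.43 and 7.86 FPKM in attached control cells, and the groups did not overlap in either state. It fell by 0.51 ± 0.089 on the log2 scale in attached cells (adjusted p = 0.0411, limma), while −0.31 ± 0.089 in detached cells did not pass (adjusted p = 0.223). Without any 1 of the 8 libraries the attached call was lost (adjusted p between 0.0725 and 0.184), and the values were −0.59 and −0.42 within the libraries with the mitochondrial locus at 0 and within the others. The same call was also lost with a block for the replicate number (adjusted p = 0.0615) or for the mitochondrial locus (adjusted p = 0.0725). NPC1, which moves cholesterol out of the lysosome, ran the other way in attached cells, with 29.3 and 30.5 FPKM in SPIB-knockdown cells, against 25.7 and 24.2 FPKM in control cells (0.26 ± 0.060, adjusted p = 0.0927). In detached cells NPC1 had 28.8 and 27.96 FPKM with the knockdown and 29.02 and 29.4 FPKM in control cells (−0.039 ± 0.060, adjusted p = 0.848). NPC2, the soluble partner of NPC1, the cystine exporter CTNS and SCARB2, the receptor that carries glucocerebrosidase, had values between −0.076 and −0.020 in detached cells and between −0.16 and −0.038 in attached cells, and none passed. The NPC2 locus overlaps that of ISCA2. In detached cells ISCA2 had 9.51 and 9.75 FPKM with the knockdown, against 16.9 and 17.8 FPKM in control cells. In attached cells it had 8.77 and 8.12 FPKM, against 15.1 and 15.7 FPKM. Several other members overlap other loci too, such as PPT1 with CAP1 (429 to 495 FPKM). The part of these loci in the member values was not tested.

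**Figure D2:**
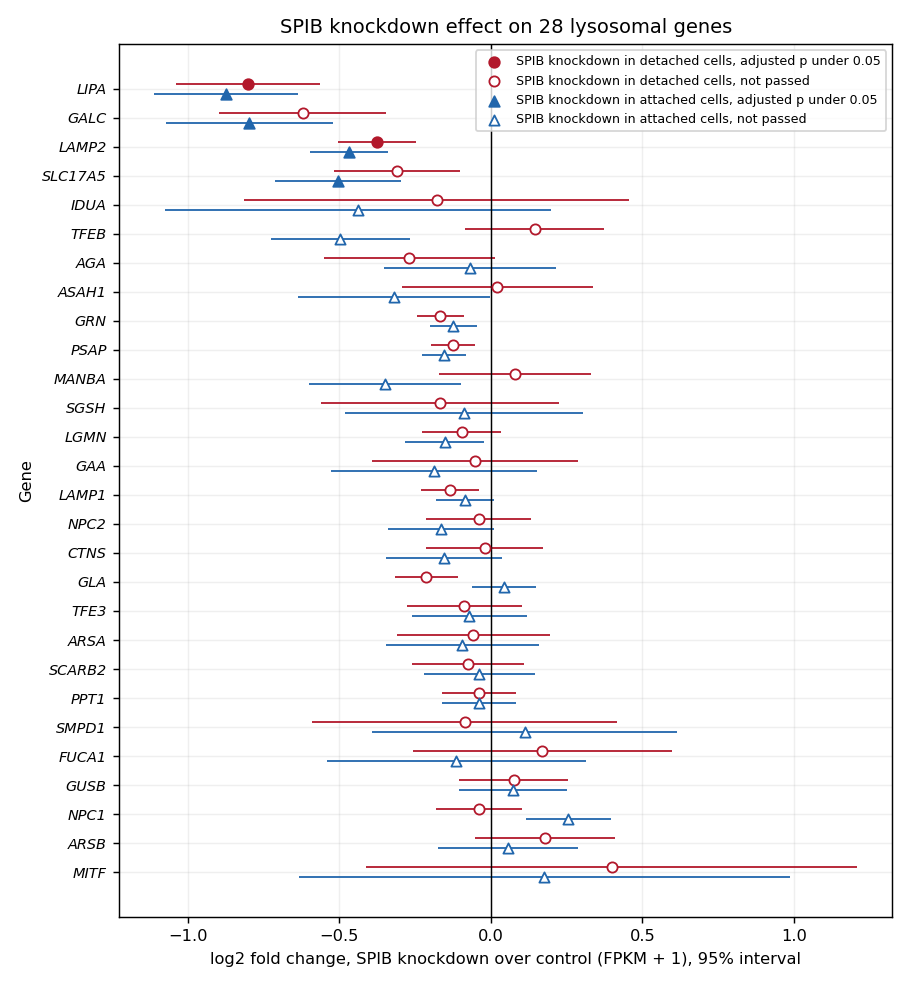
Log2 fold changes of FPKM + 1, SPIB knockdown over control, for the 28 tested genes in detached cells (red circles) and attached cells (blue triangles), with 95% intervals and filled symbols for an adjusted p under 0.05. LIPA and LAMP2 are filled in both states, GALC and SLC17A5 are filled in attached cells, and 18 of the 28 genes are negative in both.

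None of the 3 MiT/TFE factors passed in a knockdown comparison. TFEB had 10.5 and 11.96 FPKM in detached SPIB-knockdown cells and 10.4 and 9.70 FPKM in detached control cells. Attached SPIB-knockdown cells had 7.95 and 7.10 FPKM, below the 10.9 and 11.1 FPKM of attached control cells. The groups did not overlap in either state, and the order differed: 0.14 ± 0.098 in detached cells (adjusted p = 0.621) and −0.50 ± 0.098 in attached cells (adjusted p = 0.0589). TFE3 had 23.96 and 24.00 FPKM in detached SPIB-knockdown cells, 26.7 and 24.4 in detached control cells, 26.9 and 23.5 in attached SPIB-knockdown cells and 26.96 and 25.98 in attached control cells, lower without overlap with the knockdown in detached cells and overlapping in attached cells. MITF had 3.95 and 2.09 FPKM in detached SPIB-knockdown cells, 3.21 and 1.09 in detached control cells, 3.005 and 2.72 in attached SPIB-knockdown cells and 2.72 and 2.14 in attached control cells. It differed more between the 2 libraries of each detached group than between any 2 group means.

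With detachment of SPIB-knockdown cells 5 lysosomal genes rose and none fell: PSAP, SLC17A5, LIPA, TFEB and LAMP2. They are 17.9% of the 28, against 2.05% of all tested that passed in the higher direction (5.06% in the lower and 7.11% in either direction). Here too the members were chosen with earlier results of these data known. In control cells 1 gene rose with detachment, PSAP, and none fell, which is 3.57% of the 28, against 0.893% of all tested in the higher direction (2.25% in the lower and 3.15% in either direction). The median log2 fold change of the 28 was 0.12 in SPIB-knockdown cells and 0.13 in control cells, against −0.018 and −0.0067 over all tested. Positive values numbered 18 of 28 in SPIB-knockdown cells and 17 of 28 in control cells. After quantile normalization they numbered 20 and 19, and after rescaling without small RNA, ribosomal RNA and mitochondrial genes 21 and 20. Of all 13438 tested, 6246 were positive in SPIB-knockdown cells and 6503 in control cells. These numbers became 6820 and 6806 after quantile normalization and 7693 and 7600 after rescaling, so values over all tested shifted upward too.

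Both detached libraries lay above both attached libraries for 16 of the 28 in SPIB-knockdown cells (57.1%, against 24.0% of all tested) and for 14 in control cells (50%, against 23.7%). They lay below for 4 in each genotype (14.3%), against 30.0% of all tested in SPIB-knockdown cells and 28.3% in control cells. The detachment comparisons of the 2 genotypes share no library. In both, 11 genes were higher without overlap: LIPA, GALC, ARSA, ASAH1, PSAP, LGMN, GRN, LAMP2, SCARB2, SLC17A5 and NPC2. That is 39.3% of the 28, against 11.7% of all tested. Within the libraries with the mitochondrial locus at 0 and within the others, the called values in SPIB-knockdown cells were 0.20 and 0.22 for PSAP, 0.54 and 0.52 for SLC17A5, 0.50 and 0.58 for LIPA, 0.50 and 0.53 for TFEB and 0.30 and 0.19 for LAMP2, and that of PSAP in control cells 0.14 and 0.21. Each detachment comparison shares its libraries with the knockdown comparisons above, such as attached SPIB-knockdown cells, which were low for LIPA, SLC17A5, LAMP2 and TFEB.

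PSAP was higher in detached cells of both genotypes, by 0.21 ± 0.031 on the log2 scale with the knockdown (adjusted p = 0.0123) and by 0.18 ± 0.031 in control cells (adjusted p = 0.0320, limma). In FPKM the detached mean was 1.15 times the attached mean in SPIB-knockdown cells and 1.13 times in control cells. Its call in SPIB-knockdown cells was lost without detached SPIB-knockdown replicate 2 (adjusted p = 0.0857) or attached SPIB-knockdown replicate 1 (adjusted p = 0.0523) or 2 (adjusted p = 0.0666), and in control cells without any 1 of the 8 libraries (adjusted p between 0.0527 and 0.177) and with a block for the mitochondrial locus (adjusted p = 0.0543). GRN was higher in detached cells without overlap in both genotypes and did not pass (0.092 ± 0.033, adjusted p = 0.141, in SPIB-knockdown cells and 0.14 ± 0.033, adjusted p = 0.0740, in control cells). It passed in both genotypes after quantile normalization (adjusted p = 0.0202 and 0.0204) and after rescaling without small RNA, ribosomal RNA and mitochondrial genes (0.0358 and 0.0346).

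LIPA, with the levels given above, rose by 0.54 ± 0.10 with detachment of SPIB-knockdown cells (adjusted p = 0.0240). In control cells the value was 0.47 ± 0.10 and missed the threshold (adjusted p = 0.0546), while it passed with a filter at 5 FPKM (0.0384) and after quantile normalization (0.0475). The call in SPIB-knockdown cells was lost without detached SPIB-knockdown replicate 2 (adjusted p = 0.120) or attached SPIB-knockdown replicate 1 (adjusted p = 0.0599) or 2 (adjusted p = 0.111). SLC17A5 rose by 0.53 ± 0.089 in SPIB-knockdown cells (adjusted p = 0.0180), and the value in control cells was 0.33 ± 0.089 (adjusted p = 0.0921). Its call ended without any of the 4 SPIB-knockdown libraries (detached replicate 1 adjusted p = 0.0669 and 2 adjusted p = 0.102, attached replicate 1 adjusted p = 0.0568 and 2 adjusted p = 0.0840). Both genes were higher in every detached library than in every attached library of the same genotype.

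LAMP2 rose by 0.24 ± 0.055 in SPIB-knockdown cells (adjusted p = 0.0414), with 0.15 ± 0.055 in control cells (adjusted p = 0.178). The rise was called without attached control replicate 1 or 2 but not without any 1 of the other 6 libraries (adjusted p between 0.0722 and 0.162). It was also lost with a block for the replicate number (adjusted p = 0.0573) or for the mitochondrial locus (adjusted p = 0.0625). LAMP1 had values of −0.058 ± 0.041 and −0.0076 ± 0.041, whose sign turned with the scaling. GALC (0.37 ± 0.12, adjusted p = 0.109), ASAH1 (0.52 ± 0.13, adjusted p = 0.0638), MANBA (0.36 ± 0.11, adjusted p = 0.0929) and NPC2 (0.26 ± 0.074, adjusted p = 0.0819) had the next smallest p in SPIB-knockdown cells. In control cells their values were 0.20 for GALC, 0.18 for ASAH1, −0.070 for MANBA and 0.14 for NPC2. No glycosaminoglycan enzyme passed, with medians of −0.044 in SPIB-knockdown cells and −0.0063 in control cells.

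**Figure D3:**
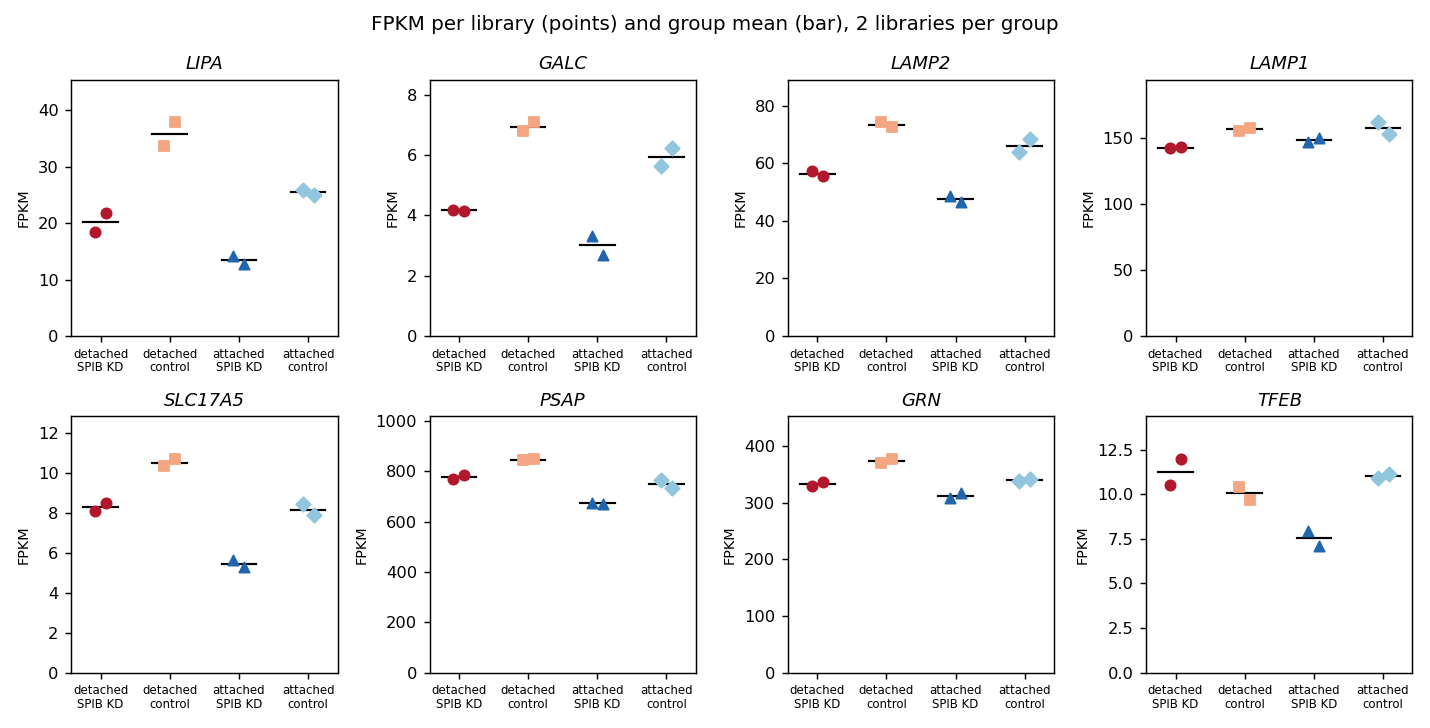
FPKM of 8 lysosomal genes per library (points) with the group mean (bar), for 2 libraries in each of 4 groups, with every axis starting at 0. LIPA, GALC, LAMP2 and SLC17A5 lie lower with the SPIB knockdown (KD) than in control cells in both states, LAMP1 did not pass in any comparison, and TFEB is low in attached SPIB-knockdown cells, at 7.95 and 7.10 FPKM.

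**Figure D4:**
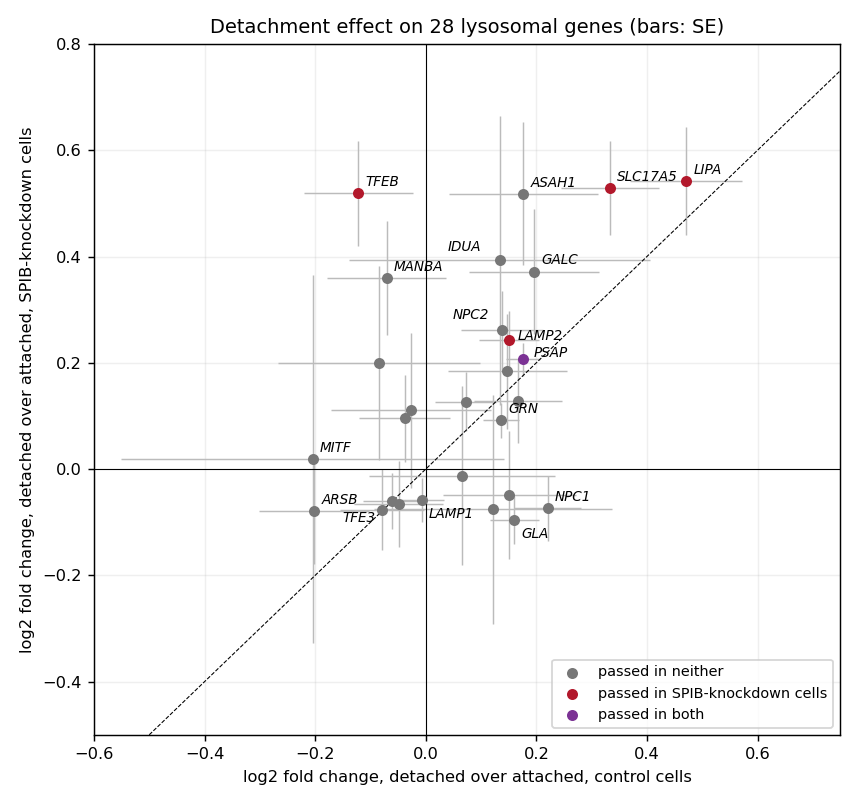
Log2 fold changes of FPKM + 1 with detachment in SPIB-knockdown cells (vertical) against control cells (horizontal) for the 28 tested genes, with SE bars and a dashed line of equal change. PSAP passed in both genotypes, LIPA, SLC17A5, LAMP2 and TFEB in SPIB-knockdown cells, and 11 genes, among them TFEB, MANBA, GLA and NPC1, have opposite signs on the axes. Opposite signs were also found for 4175 of all 13438 tested, so the 11 are not read as a result about the members.

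TFEB rose by 0.52 ± 0.098 with detachment of SPIB-knockdown cells (adjusted p = 0.0249), and had −0.12 ± 0.098 in control cells (adjusted p = 0.542). Its detached SPIB-knockdown libraries, at 10.5 and 11.96 FPKM, overlapped with the attached control libraries at 10.9 and 11.1 FPKM, so the rise was measured against the low values of attached SPIB-knockdown cells. The call was lost without detached SPIB-knockdown replicate 1 (adjusted p = 0.0582) or 2 (adjusted p = 0.135), or attached SPIB-knockdown replicate 1 (adjusted p = 0.0601) or 2 (adjusted p = 0.113). TFE3 had −0.066 ± 0.081 in SPIB-knockdown cells and −0.049 ± 0.081 in control cells, and MITF had 0.019 ± 0.35 in SPIB-knockdown cells and −0.20 ± 0.35 in control cells.

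The test of whether the knockdown value differed between the states (detached minus attached, the interaction) passed for none of the 28 genes and for none of the 13438 tested (0.0%) by limma. At an unadjusted p under 0.05 it gave 4 of the 28 genes and 898 of all tested. TFEB had the largest value of the 28, 0.64 ± 0.14 (unadjusted p = 0.00212, adjusted p = 0.602), followed by GLA with −0.26 ± 0.063 and NPC1 with −0.29 ± 0.085 by p. On the log2(FPKM + 1) scale LIPA had the lowest knockdown values of the 28 in both states. Its interaction was 0.071 ± 0.14 (95% interval −0.26 to 0.41), and that of LAMP2 was 0.093 ± 0.077 (−0.087 to 0.27).

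The rest of the lysosome was read from 5 further lists of 105 genes, of which 90 have a row and 86 were tested: other soluble hydrolases and activators, other membrane proteins and transporters, subunits of the proton pump (V-ATPase), genes of mannose 6-phosphate tagging and sorting, and regulators of mTORC1 and TFEB at the lysosome. None of the 86 passed in either knockdown comparison or in the interaction. Of all tested, 0.737% passed with the knockdown in detached cells, 1.85% in attached cells and 0.0% in the interaction. With detachment, 2 rose and 1 fell in SPIB-knockdown cells and 2 rose in control cells. Over all tested, 2.05% rose and 5.06% fell in SPIB-knockdown cells, and 0.893% rose and 2.25% fell in control cells. Counts this low among 86 genes are not read as a result about the lists. DNASE2, the acid DNase of the lysosome, had 27.3 and 26.1 FPKM in detached SPIB-knockdown cells, 26.3 and 28.01 in detached control cells, 19.98 and 18.8 in attached SPIB-knockdown cells, and 21.4 and 21.4 in attached control cells. It rose in both genotypes, by 0.44 ± 0.066 with the knockdown (adjusted p = 0.0122) and by 0.33 ± 0.066 in control cells (adjusted p = 0.0467). The call in control cells was lost without any 1 of the 8 libraries (adjusted p between 0.0661 and 0.238), and that in SPIB-knockdown cells without detached SPIB-knockdown replicate 1 (adjusted p = 0.0669) or 2 (adjusted p = 0.0639) or attached SPIB-knockdown replicate 2 (adjusted p = 0.0706). The call in control cells was also lost with a block for the replicate number (adjusted p = 0.0636) or for the mitochondrial locus (adjusted p = 0.0702).

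SLC38A9, an amino acid transporter that signals to mTORC1 from the lysosome, rose with detachment of control cells, with 15.5 and 15.6 FPKM in detached cells, against 8.26 and 8.88 FPKM in attached cells (0.79 ± 0.078, adjusted p = 0.00378). This call held in all 18 alternatives tried. In SPIB-knockdown cells SLC38A9 had 14.03 and 13.4 FPKM detached and 10.9 and 11.4 FPKM attached (0.27 ± 0.078, adjusted p = 0.0838). PCYOX1, prenylcysteine oxidase, rose with detachment of SPIB-knockdown cells, with 16.6 and 19.1 FPKM in detached cells and 11.6 and 12.6 FPKM in attached cells (0.52 ± 0.087, adjusted p = 0.0175). That was lost without detached SPIB-knockdown replicate 2 (adjusted p = 0.0975) or attached SPIB-knockdown replicate 1 (adjusted p = 0.0790) or 2 (adjusted p = 0.0586). M6PR, a mannose 6-phosphate receptor, fell with detachment of SPIB-knockdown cells, to 234 and 228 FPKM, against 269 and 278 FPKM in attached cells (−0.24 ± 0.044, adjusted p = 0.0219). It did not pass after quantile normalization (0.130) or rescaling (0.0506), or without any 1 of the 4 SPIB-knockdown libraries (adjusted p between 0.0646 and 0.120).

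The soluble list had negative medians with the knockdown, −0.046 in detached and −0.12 in attached cells, against 0 and 0.0066 over all tested. Its smallest p in detached cells belonged to FUCA2, a fucosidase (−0.15 ± 0.046, adjusted p = 0.262), and MAN2B2, a mannosidase (−0.28 ± 0.091, adjusted p = 0.285). The other membrane proteins had a positive median in attached cells, 0.14, and 0.0078 in detached cells. LAMP3, a relative of LAMP1 and LAMP2, had 8.74 and 8.28 FPKM in detached SPIB-knockdown cells and 4.99 and 5.92 FPKM in detached control cells (0.56 ± 0.14, adjusted p = 0.168). The V-ATPase had medians of 0.073 in detached and 0.034 in attached cells with the knockdown. Its subunit genes ATP6V1C1 (0.24 ± 0.052, adjusted p = 0.112) and ATP6V0E1 (−0.32 ± 0.087, adjusted p = 0.191) had opposite signs in detached cells. For mannose 6-phosphate tagging and sorting the medians were −0.041 and −0.0055, and for the regulators 0.038 and −0.018, in detached and in attached cells. The smallest p in detached cells belonged to AP3D1 (−0.18 ± 0.049) and VPS26A (0.10 ± 0.064) among sorting genes and to LAMTOR3 (0.30 ± 0.11) and RRAGA (0.16 ± 0.085) among regulators, and none of these passed.

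With detachment, the medians of these lists lay between −0.00092 (regulators) and 0.11 (soluble list) in SPIB-knockdown cells and between −0.026 (V-ATPase) and 0.057 (membrane proteins) in control cells. Besides the called genes, the smallest p in control cells belonged to MAN2B2 (0.31 ± 0.091), TPCN2, a cation channel (0.32 ± 0.089), IGF2R, the larger mannose 6-phosphate receptor (0.22 ± 0.050), the V-ATPase subunits ATP6V1F (−0.16 ± 0.052) and ATP6V1D (−0.19 ± 0.11), and the mTORC1 activator RHEB (−0.18 ± 0.050) and LAMTOR3 of the Ragulator complex (−0.35 ± 0.11). None of these passed.

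The 8 loci that hold the remaining members were tested as loci. Their log2 fold changes lay between −0.21 and 0.25 over the 4 comparisons and the interaction. The locus of PNPLA6 and MCOLN1, of which MCOLN1 encodes a calcium channel of the lysosome, rose with detachment of SPIB-knockdown cells (0.25 ± 0.054, adjusted p = 0.0370, limma). That call was lost without any 1 of the 8 libraries (adjusted p between 0.0568 and 0.172) and with the block for the mitochondrial locus (adjusted p = 0.0571). The IDS locus, which holds no other gene symbol and encodes iduronate sulfatase, had 76.9 and 74.2 FPKM in attached SPIB-knockdown cells, against 60.9 and 66.1 FPKM in attached control cells (0.25 ± 0.057, adjusted p = 0.0878).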

How the data were processed

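RNA of 8 libraries of H1703 cells was sequenced after Trizol extraction and first-strand cDNA synthesis, per the labels' protocols. The authors deposited 1 table of FPKM values per library; HISAT, Cuffnorm and the hg19 build are named in the submitters' processing notes. The sources used here name no versions, annotation or strandedness. Rows of the same single symbol were summed, and loci that merge several symbols were kept as loci. Genes and loci at 1 FPKM or more in at least 2 of the 8 libraries (13438) were tested with limma 3.58.1 (R 4.3.3) on log2(FPKM + 1), a scale that understates changes of low genes. One model held the 4 groups and an intensity trend, p-values were two-sided and Benjamini-Hochberg adjusted over all tested, and a call needs an adjusted p under 0.05. The fit has 4 residual and 3.42 prior degrees of freedom. The limma fit was run on simulated data with shifts set only in attached SPIB-knockdown cells. The other comparisons and the other steps were not checked in this way. Total read counts are unknown, so no counting interval is given.

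Genes given with every library are LIPA, GALC, GLA, PSAP, GRN, LAMP1, LAMP2, SLC17A5, NPC1, TFEB, TFE3 and MITF, and others appear by range, count or smallest p. The members, the other lists and this naming rule were chosen with earlier results of these data known. Alternatives were other filters, pseudocounts, scalings, fits and the removal of each library. Promoter windows come from RefSeq on GRCh38.p14 and were not joined to the hg19 coordinates of the files.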

Additional observations from a re-analysis of the deposited data

Results flagged for a closer look

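For 3 genes both libraries of 1 comparison moved opposite to both libraries of the matching comparison, without overlap within either. The share of all tested genes with this pattern was not computed. Within a single comparison, 21.3% to 30.0% of all tested lay without overlap in a given direction. The count of 3 is therefore not shown to exceed that of genes in general. The interaction was tested with limma, and none of these differences passed.

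TFEB was 0.52 higher in detached than in attached SPIB-knockdown cells, with −0.12 in control cells. Its knockdown value was 0.14 in detached cells and −0.50 in attached cells, and the difference was 0.64 (adjusted p = 0.602).

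GLA had −0.096 with detachment of SPIB-knockdown cells and 0.16 in control cells. With the knockdown it had −0.21 in detached cells and 0.043 in attached cells, a difference of −0.26 (adjusted p = 0.602).

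NPC1 had −0.074 with detachment of SPIB-knockdown cells and 0.22 in control cells. With the knockdown it had −0.039 in detached cells and 0.26 in attached cells, a difference of −0.29 (adjusted p = 0.637).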

How the results depend on the processing

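The counts of members called were 5 with detachment of SPIB-knockdown cells, 1 with detachment of control cells, 2 with the knockdown in detached cells and 4 with the knockdown in attached cells. In the same order they were 2, 0, 0 and 2 without the filter on low FPKM, and the same with no intensity trend. The genes differed in part. In attached cells the knockdown calls were LIPA and LAMP2 without the filter, and LIPA and GALC without the trend. With detachment of SPIB-knockdown cells they were PSAP and SLC17A5 without the filter, and SLC17A5 and TFEB without the trend. With only the libraries of the comparison all 4 counts were 0. Calls over all tested were fewer too. With the knockdown in attached cells 86 rose and 162 fell, against 35 and 75 of 27204 without the filter and 24 and 42 without the trend. With detachment of control cells the count was 2 with a filter at 5 FPKM, 3 after quantile normalization, 2 after rescaling, and 0 with a block for the mitochondrial locus. Leaving out 1 library at a time gave 0 to 5, 0 to 0, 0 to 1 and 0 to 2 calls. The interaction gave 0 in every alternative that could be fitted (only the libraries of the comparison is not applicable to it). The cause of these shifts was not tested.

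Deviations of same-numbered replicates correlated between −0.19 and 0.27 over the 6 pairs of groups, 3 positive and 3 negative, and the labels give the numbers no meaning, so they were not used to pair samples. Matched by whether the mitochondrial locus is listed at 0, a match chosen after seeing the data, all 6 correlations were positive (0.14 to 0.27). Their sizes stayed the same, and only the sign of those with attached SPIB-knockdown cells turned. Whether the libraries deviate together in these 2 sets was not tested. With the replicate block the counts were 4, 1, 1, 3 and 0. With the block for the mitochondrial locus they were 4, 0, 1, 3 and 0. Both blocks ended the calls of LAMP2 with detachment of SPIB-knockdown cells and with the knockdown in detached cells, and of SLC17A5 with the knockdown in attached cells, and the block for the locus ended that of PSAP with detachment of control cells.

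The PSAP rise in control cells was lost after quantile normalization (adjusted p = 0.0563). PSAP with the knockdown in attached cells passed with a filter at 5 FPKM (0.0467) and after rescaling (0.0435), and TFEB there with the filter at 5 FPKM (0.0466). GLA with detachment of control cells passed after quantile normalization (0.0475), and so did NPC2 with detachment of SPIB-knockdown cells. With detachment of SPIB-knockdown cells 7 members passed after quantile normalization and 6 after rescaling, and with the knockdown in attached cells 6 passed with the filter at 5 FPKM and 5 after rescaling. That filter kept 25 members and 9776 genes and loci in all, of which 110 passed in the higher and 191 in the lower direction. After rescaling 61 and 182 of all 13438 passed with the knockdown in attached cells. Over all tested, higher and lower calls with detachment numbered 276 and 680 in SPIB-knockdown cells, 334 and 350 after quantile normalization and 399 and 404 after rescaling. In control cells they numbered 120 and 303, 159 and 182, and 168 and 195.

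Values that changed sign were all uncalled. LAMP1 with detachment became 0.038 and 0.00013 in SPIB-knockdown cells and 0.038 and 0.033 in control cells after quantile normalization and rescaling. The LAMP1 interaction was 4.6e-05 after quantile normalization, that of TFE3 0.00017 after rescaling, and MITF with detachment of SPIB-knockdown cells −0.054 after quantile normalization. Leaving out 1 library at a time gave LAMP1 with detachment of control cells −0.048 to 0.032, the LIPA interaction −0.044 to 0.19, and TFE3 −0.16 to 0.028 with detachment of SPIB-knockdown cells, −0.11 to 0.012 with detachment of control cells, −0.17 to 0.022 with the knockdown in attached cells and −0.11 to 0.077 for the interaction. For MITF it gave −0.32 to 0.36 with detachment of SPIB-knockdown cells, −0.71 to 0.30 with detachment of control cells, −0.11 to 0.91 with the knockdown in detached cells and −0.28 to 0.73 for the interaction. Every call of a member kept its direction in all alternatives.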
